A study of Mus musculus with 14 samples.

Results

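Myc, Mycn, Max, Lin28a, Lin28b and Trim71 were followed across 7 groups of mouse pluripotent cells. They are the 6 rows of the deposited gene count table that carry these names, out of 24015 gene names. All 6 passed the filter on low counts that left 16247 genes for testing. The lowest count of any of them in a library was 191, for Lin28b.

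The study asked how epiblast stem cells (EpiSC, the primed state) compare with embryonic stem cells (ESC, the naive state) and with cells brought back from EpiSC by MM401, which blocks the activity of Mll1, a histone methyltransferase encoded by Kmt2a. RNA was sequenced in 14 libraries, 2 per group, which the series calls biological duplicates. ESC and EpiSC were both derived from blastocysts and have the genotype label CD1/JF1. ESC grew with leukemia inhibitory factor (LIF) on feeder cells, and EpiSC in a medium with bFGF. The groups called MM401 day 3 and MM401 P2 were EpiSC of the same genotype label given 100 µM MM401 in LIF medium for 3 days, or for 6 days with sampling at passage 2. For MM401 P2 replicate 2 the title has P2b. Reverted lines (rES) have the genotype label CD1-deltaTSIX/JF1, were kept in LIF medium at 25 µM MM401 after passage 3, and were sampled at passage 6 and passage 30. A last group is rES at passage 30 grown without MM401. In comparisons of the treated groups with EpiSC, LIF medium and MM401 came together, so the effects of each cannot be told apart there. When rES is compared with ESC or EpiSC, the line and the state cannot be told apart either. The sources used here do not say how many lines or clones the rES samples represent.

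Lin28a and Lin28b are RNA-binding proteins that block the maturation of the let-7 microRNAs, a family that is scarce in pluripotent cells and accumulates as cells differentiate. Mature let-7 pairs through its seed with messenger RNAs, those of Lin28a, Lin28b and Trim71 among its known targets, so that Lin28 and let-7 oppose each other. Trim71 (also called Lin41) is an RNA-binding protein of the TRIM-NHL family that represses messenger RNAs in early embryonic cells. Myc and Mycn are related transcription factors that bind the E-box CACGTG as dimers with Max and drive growth and ribosome production, and Myc is a known target of LIF and STAT3 signalling in mouse embryonic stem cells.

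The let-7 seed and its matches are shown because they are the sequence feature that links Lin28a, Lin28b and Trim71. All 9 mature let-7 and miR-98 sequences of the 5p arm in the RefSeq table (GRCm38.p6) have the same seed, GAGGUAG, at bases 2 to 8, which is in capitals here.
let-7a: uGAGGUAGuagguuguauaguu
let-7g: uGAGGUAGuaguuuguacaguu
miR-98: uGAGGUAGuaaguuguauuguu

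The 7 bases that pair with this seed, CTACCTC, were searched on the sense strand of the longest 3′ UTR of each gene in GENCODE M21 (GRCm38). They occurred 10 times in the members, 2 times in Lin28a, 4 times in Lin28b and 4 times in Trim71. None was found in the 3′ UTRs of Myc, Mycn and Max, which says only that these letters are not in those windows. An A follows the match at 7 of the 10 places (2 in Lin28a, 1 in Lin28b and 4 in Trim71). The first 5 of these, with the match in capitals and all on the minus strand, are printed 5′ to 3′ with their GRCm38 positions.
Lin28a, chr4:134005189-134005217: tggagtgcacagcctgttgaaCTACCTCa
Lin28a, chr4:134004551-134004579: tgctttgagatcgccacaaacCTACCTCa
Lin28b, chr10:45381022-45381050: cccttcacccgggcgggaagtCTACCTCa
Trim71, chr9:114512472-114512500: aagtacaacattgcctaagtcCTACCTCa
Trim71, chr9:114512376-114512404: ctgtgaagtgataatttctatCTACCTCa

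Matches begin 909 and 1547 bases after the stop codon in Lin28a. In Lin28b they begin at 36, 2410, 2582 and 3998 bases, and only the first is followed by A. In Trim71 they begin at 166, 262, 3591 and 3617 bases, and the last pair lies outside the RefSeq model of the gene. Of all 14665 tested protein-coding genes with a 3′ UTR, 10.4% hold at least 1 match. Long UTRs hold more, so the share is 15.6% among genes with a UTR of similar length to that of Lin28a, 24.6% for Lin28b and 30.4% for Trim71. These genes are known let-7 targets partly through such matches, so the matches describe the genes and are not a result of the counts. Mature microRNAs were not measured.

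**Figure D1:**
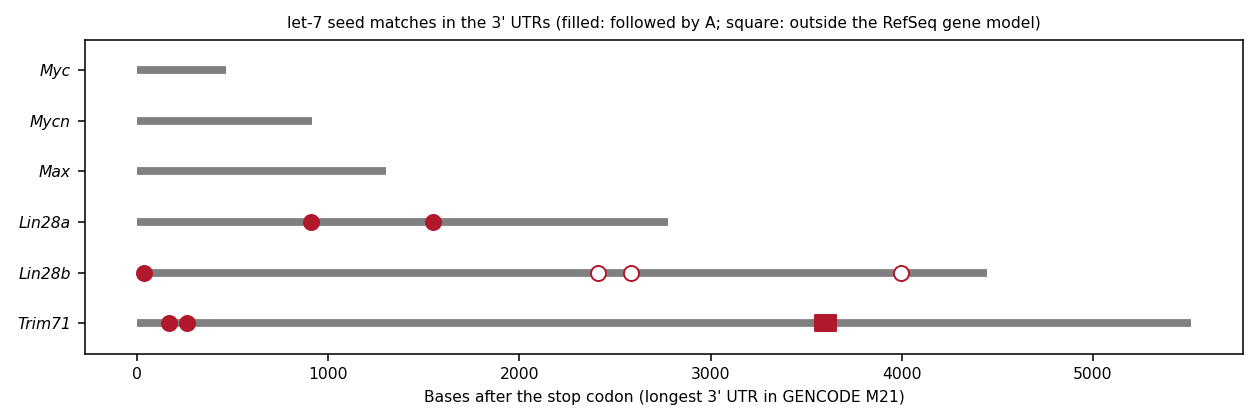
Positions of the let-7 seed match in the longest 3′ UTR of each of the 6 genes, in bases after the stop codon, with each UTR drawn to scale as a grey line. Filled marks are followed by A, and squares mark the 2 matches of Trim71 outside its RefSeq model, which lie close together. Lin28a, Lin28b and Trim71 hold 2, 4 and 4 matches, and Myc, Mycn and Max hold none.

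Depth was 20831588 to 23677089 counts in 10 libraries. The 2 libraries of MM401 day 3 were deeper, at 113221270 and 116086115 counts, and so were those of MM401 P2, at 74952496 and 80383376. Ribosomal Rn45s took 1.39% to 1.9% of counts in these 4 libraries and 2.005% in rES passage 30 replicate 2, against 0.548% in replicate 1 of that group and 0.35% to 0.911% in the other 8 libraries. The part of this difference in the members' levels was not tested. The state labels were checked on fixed markers. The summed level of 10 naive genes was 573.8 CPM (the usual unit of counts scaled to library size, here by the TMM method) in EpiSC, and 2440 to 5424 CPM in the other 6 groups. The summed level of 12 primed genes was 1986 CPM in EpiSC and 298 to 1106 CPM elsewhere, though 6 of the 12 were higher and 5 lower in ESC when tested singly. The summed level of 20 feeder fibroblast markers, each above 0 in every library, was 6215 CPM in EpiSC, 6868 in ESC, 7122 at MM401 day 3, 21044 at MM401 P2, 4575 in rES at passage 6, 2141 at passage 30 and 2004 without MM401. Members were also counted from whatever fibroblast RNA was present, and the part of this RNA in their levels was not tested. In such bulk samples, fewer cells of a type and less RNA per cell cannot be told apart.

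A difference is called higher or lower here at an adjusted p under 0.05 in edgeR's quasi-likelihood test (two-sided, Benjamini-Hochberg over all 16247 genes of a comparison), and every adjusted p below is from that test. Levels of a gene are given in CPM, replicate 1 before replicate 2, and a log2 fold change is followed by ± its standard error.

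Lin28a and Lin28b were both highest in EpiSC. Lin28a was at 505 and 502 CPM in EpiSC and at 414 and 406 CPM in ESC. It was at 176 and 172 CPM at MM401 day 3, and at 166 and 163 CPM at MM401 P2. In rES, Lin28a was at 191 and 189 CPM at passage 6, 223 and 223 CPM at passage 30, and 213 and 226.5 CPM without MM401. ESC therefore lay close to EpiSC for this gene, and all 5 groups that had received MM401 lay below both. In the order of levels, only rES at passage 30 with and without MM401 did not differ between neighbours (0.02 ± 0.04, adjusted p = 0.77, edgeR), and their libraries overlap. The last step, from MM401 day 3 to P2, was small (adjusted p = 0.0264, edgeR).

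Lin28b, the second paralog, separated EpiSC from every other group. It was at 96.6 and 100.3 CPM in EpiSC, against 16.9 and 18.9 CPM in ESC. At MM401 day 3 it was at 15.6 and 17.4 CPM, and at MM401 P2 at 15.8 and 15.7 CPM. The day 3 libraries overlap with those of ESC, and the P2 libraries lie within the range of day 3, and neither pair was called different (adjusted p = 0.202 and 0.371, edgeR). The P2 libraries lie below those of ESC, and Lin28b was called lower at P2 than in ESC (-0.19 ± 0.08, adjusted p = 0.0418, edgeR). In rES, Lin28b was lower still, at 9.15 and 9.44 CPM at passage 6, 13.2 and 11.7 CPM at passage 30, and 11.7 and 10.1 CPM without MM401. The highest group mean of Lin28b, in EpiSC, was 10.6 times the lowest, in rES at passage 6, the widest range among the 6 genes, where that of Lin28a was 3.06 times.

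Levels of different genes were compared per kilobase of exon (GENCODE M21, union of exons), since Lin28b has 9065 exon bases and Lin28a 3996. Per kilobase, Lin28a stood at 126 CPM in EpiSC and Lin28b at 10.9 CPM. The ratio of Lin28b to Lin28a per kilobase was 0.0844 and 0.0881 in EpiSC. It was 0.0179 and 0.0205 in ESC, where Lin28b was 5.51-fold lower than in EpiSC and Lin28a 1.23-fold lower. At MM401 day 3 and P2, where both paralogs were low, the 4 libraries gave ratios of 0.0391 to 0.0444. In the 6 rES libraries the ratio was 0.0197 to 0.0262, a range that overlaps that of ESC. With the longest transcript of each gene in place of the exon union, which rescales every library alike, the EpiSC ratios were 0.124 and 0.13. Lin28a was thus the more abundant paralog per length in all 14 libraries on either measure of length.

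**Figure D2:**
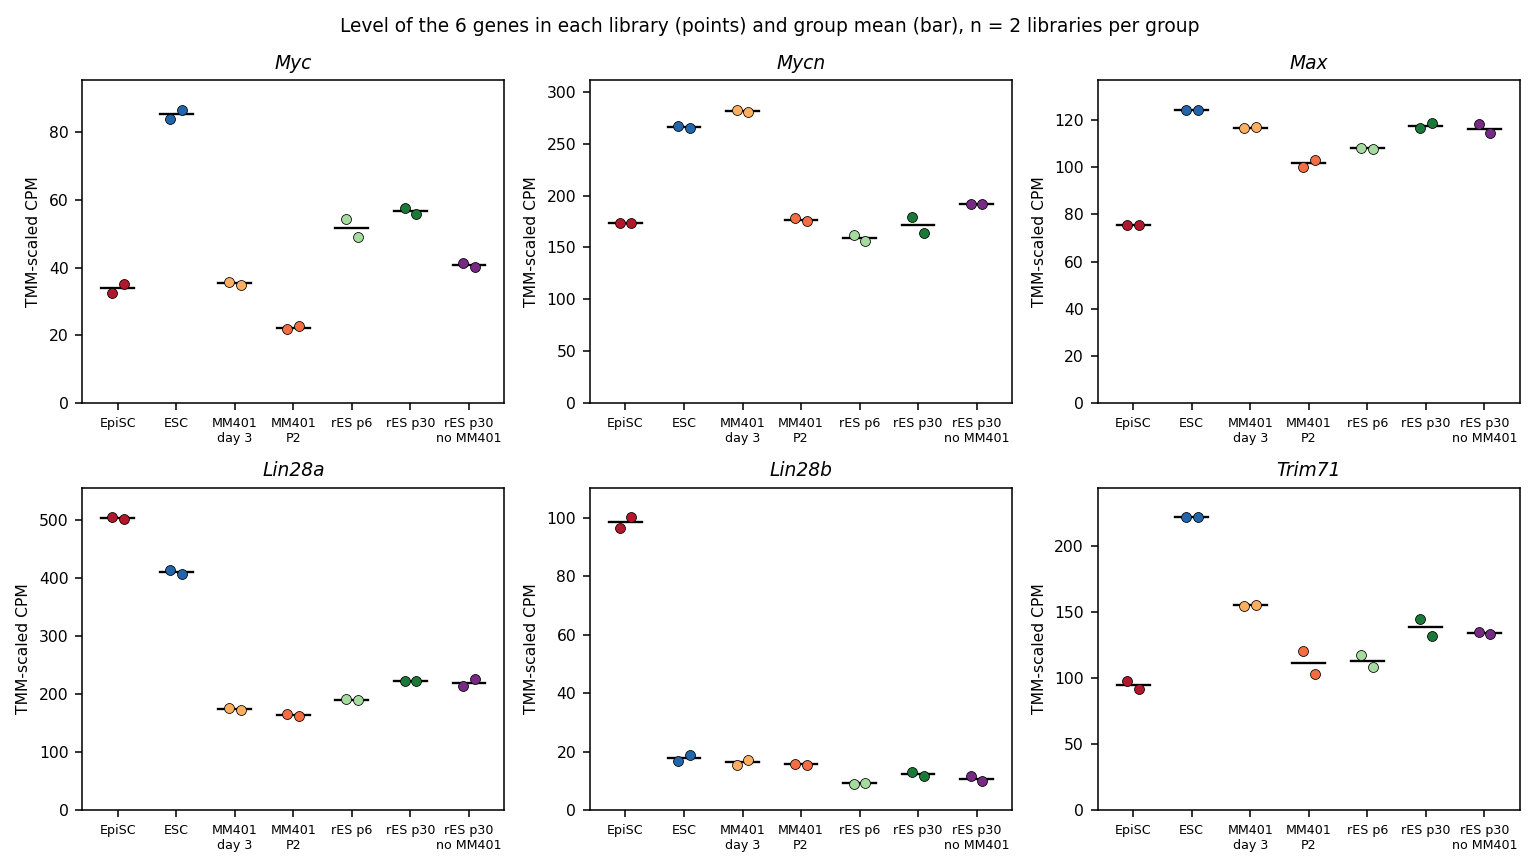
Level of each of the 6 genes in every library, in TMM-scaled CPM on a linear axis that starts at 0, with 2 points per group and a bar at the group mean. Lin28b is near 98.5 CPM in EpiSC and under 20 CPM in every other library, Lin28a is below 230 CPM in all groups that received MM401, and Myc, Max and Trim71 are highest in ESC.

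Trim71 had its lowest level in EpiSC, where Lin28a and Lin28b had their highest. Its highest level was in ESC, where Lin28a and Lin28b each had their next highest group mean. It was at 98.1 and 91.7 CPM in EpiSC and at 222 and 222 CPM in ESC. MM401 day 3 gave 155 and 156 CPM and MM401 P2 gave 120.5 and 103 CPM, the largest gap between replicates for this gene. In rES, Trim71 was at 117 and 108.5 CPM at passage 6, 145 and 132 CPM at passage 30, and 135 and 134 CPM without MM401. ESC stood above all other libraries, and the EpiSC libraries below all others. Neighbours in the order of levels were not called different between rES at passage 30 with and without MM401 (adjusted p = 0.685, edgeR) and between rES at passage 6 and MM401 P2 (adjusted p = 0.837, edgeR).

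Myc was highest in ESC, at 83.8 and 86.7 CPM, and lowest at MM401 P2, at 21.7 and 22.7 CPM. EpiSC (32.6 and 35.1 CPM) and MM401 day 3 (35.8 and 35.0 CPM) overlap. rES had middle levels of Myc, with 54.3 and 49.1 CPM at passage 6, 57.7 and 55.7 CPM at passage 30, and 41.5 and 40.3 CPM without MM401. No rES library reached an ESC library, and every rES library was above those of EpiSC. Neighbours that were not called different were rES at passage 30 and passage 6 (adjusted p = 0.0989, edgeR), and MM401 day 3 and EpiSC (adjusted p = 0.328, edgeR).

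Mycn followed a different order, with ESC and MM401 day 3 on top. It was at 267 and 265 CPM in ESC and at 283 and 280.5 CPM at MM401 day 3. EpiSC had 173 and 173 CPM of Mycn and MM401 P2 had 178 and 175 CPM. In rES it was at 161.5 and 156 CPM at passage 6, 179.5 and 164 CPM at passage 30, and 192 and 192 CPM without MM401. The 3 groups MM401 P2, EpiSC and rES at passage 30 were not called different as neighbours in the order (adjusted p = 0.511 and 0.813, edgeR), nor were MM401 day 3 and ESC (adjusted p = 0.0514, edgeR). The highest group mean was 1.77 times the lowest for Mycn, against 3.84 times for Myc.

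Mycn was the more abundant of the pair in every library. Per kilobase of exon, the ratio of Mycn to Myc was 2.63 and 2.52 in ESC, 2.45 and 2.62 in rES at passage 6, and 2.57 and 2.43 at passage 30, so these 3 groups overlap. The ratio was 4.38 and 4.07 in EpiSC and 3.8 and 3.92 in rES without MM401. It was widest in the treated EpiSC, with 6.52 and 6.6 at MM401 day 3 and 6.75 and 6.37 at MM401 P2. At day 3 Mycn was high while Myc stood at its EpiSC level, and at P2 both were lower by the same log2 difference of -0.67.

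**Figure D3:**
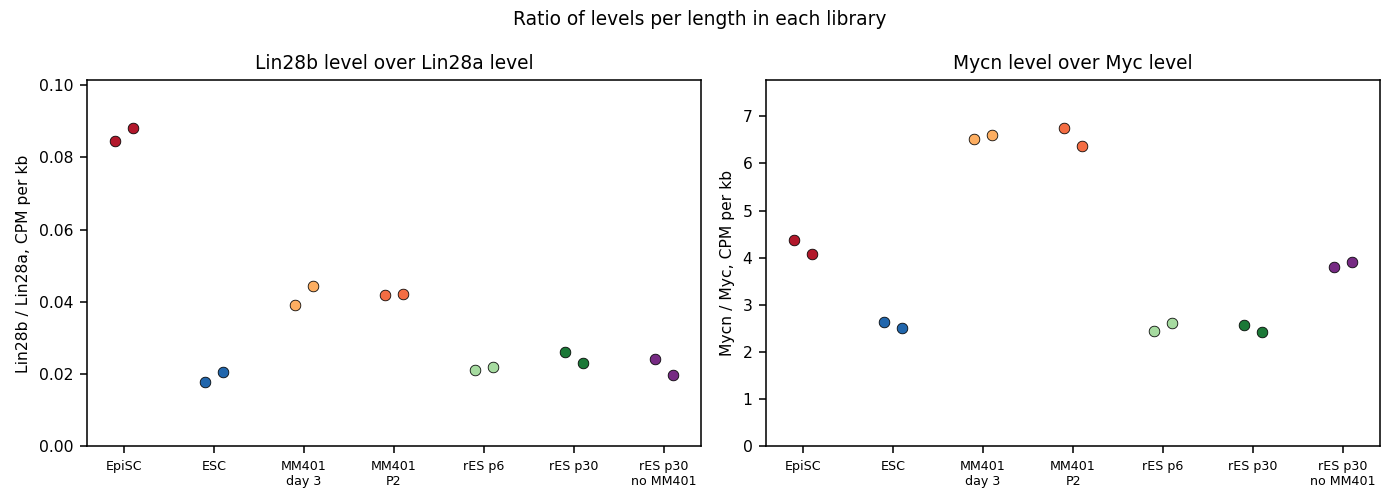
Ratio of Lin28b to Lin28a (left) and of Mycn to Myc (right) in each library, from CPM per kilobase of exon, on linear axes that start at 0. The Lin28b share is highest in EpiSC, at 0.0844 and 0.0881, and the Mycn to Myc ratio is highest in the 4 MM401 day 3 and P2 libraries, at 6.37 to 6.75.

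Max, the shared partner of Myc and Mycn, varied least, with its highest group mean 1.65 times the lowest. It was at 75.5 and 75.5 CPM in EpiSC and at 124 and 124 CPM in ESC. MM401 day 3 had 116.4 and 117.1 CPM of Max and MM401 P2 had 100.2 and 103 CPM. The 6 rES libraries had 108 to 119 CPM. EpiSC lay below all other libraries, and in the order of levels the only step between neighbours that was called was that from MM401 P2 down to EpiSC (0.43 ± 0.04, adjusted p = 5.49e-12, edgeR). Groups further apart in that order did differ, such as MM401 P2 and ESC (-0.29 ± 0.04, adjusted p = 4.16e-08, edgeR).

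The E-box CACGTG, which reads the same on both strands, was searched in RefSeq promoter windows (250 bases before to 50 bases after the start, GRCm38.p6), which hold 5 of the 6 members. It occurred once in the windows of Max and Lin28b, members whose levels differed in opposite directions between ESC and EpiSC. These stretches are printed on the gene's strand with the motif in capitals.
Max, chr12:76962234-76962263, minus strand: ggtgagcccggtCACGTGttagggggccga
Lin28b, chr10:45470233-45470262, minus strand: aattgacagagtCACGTGtgctcaggggcc

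The windows of Lin28a, Mycn and Trim71 did not hold these letters. CACGTG was in 8.09% of all 27025 promoters of the table, in 11.3% of those of tested genes, and in 9 of the 26 promoters found for the Myc target list used below (34.6%). The motif was also in 6 of 14 promoters of let-7 target genes (42.9%), 4 of 10 of the Max network (40%) and 1 of 11 of microRNA processing genes (9.09%), so a high share was not particular to the Myc targets. Such a match describes the sequence, and binding of Myc or Max was not measured.

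Each of the 6 members differed between ESC and EpiSC, with 4 higher and 2 lower in ESC. The background was 74.5% of all genes tested (37% higher and 37.5% lower), so a call by itself is common here. Myc was higher in ESC by 1.33 ± 0.06 (2.52-fold, adjusted p = 4.18e-22, edgeR). Trim71 was higher by 1.23 ± 0.06 (2.34-fold, adjusted p = 7.43e-15, edgeR), and Max (0.72 ± 0.04) and Mycn (0.62 ± 0.04) by less. Lin28b was lower in ESC by 5.51-fold (-2.46 ± 0.08, adjusted p = 2.13e-27, edgeR), and Lin28a by only 1.23-fold (-0.29 ± 0.04). The paralogs thus differed in the same direction by very different amounts.

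Genes around the members were read from 6 lists taken from general knowledge, and all their genes were tested. The list of the Myc, Max and Mxd network (the Max network below) has 10 other genes. Most of their proteins pair with Max, while Mlx, Mlxip and Mlxipl belong to the linked Mlx branch and do not pair with Max. Of the 10 genes 4 were higher and 3 lower in ESC than in EpiSC (5 lower with total counts, median 0.03 against 0.00 over all genes). Mxd1 (2.07 ± 0.10) and Mnt (1.77 ± 0.05), which repress as partners of Max, were higher, as was the Max dimer partner Mga (0.75 ± 0.04), while Mxd4, another repressor, was lower (-1.51 ± 0.11). Of 31 Myc target genes 14 were higher and 9 lower (16 lower with total counts; median 0.06), with the spermidine synthase gene Srm (1.02 ± 0.04), the ribosome biogenesis gene Ppan (1.04 ± 0.04), the mitochondrial serine enzyme Shmt2 (0.97 ± 0.04) and the lactate dehydrogenase gene Ldha (0.75 ± 0.03) higher. Among 16 Myc cofactors and turnover genes 7 were higher and 6 lower (median 0.05), and Wdr5 (0.79 ± 0.04), Usp28 (0.86 ± 0.04) and the ubiquitin ligase Huwe1 (0.56 ± 0.03) were higher.

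On the Lin28 side, 8 of 15 genes of microRNA processing and let-7 turnover were lower in ESC and 5 higher (median -0.26). Msi1, an RNA-binding protein that works with Lin28 in blocking let-7, was 6.86-fold lower (-2.78 ± 0.09, 52.1 to 7.6 CPM). Zcchc11, the uridylyl transferase that Lin28a recruits to the let-7 precursor, was lower by 2.74-fold (-1.45 ± 0.06). Of 22 let-7 target genes 7 were higher and 10 lower (median -0.04), with Nras (-0.84 ± 0.04) lower and the matrix gene Thbs1 (0.92 ± 0.04) higher. Of 7 Trim71 target genes 2 were higher and 3 lower (median -0.36), including the immediate early gene Egr1 (-3.34 ± 0.05, 476.6 to 47.2 CPM), E2f7 (-1.13 ± 0.08), the cell cycle inhibitor Cdkn1a (0.36 ± 0.04) and Rbl2 (0.93 ± 0.10). The let-7 targets therefore differed in both directions.

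**Figure D4:**
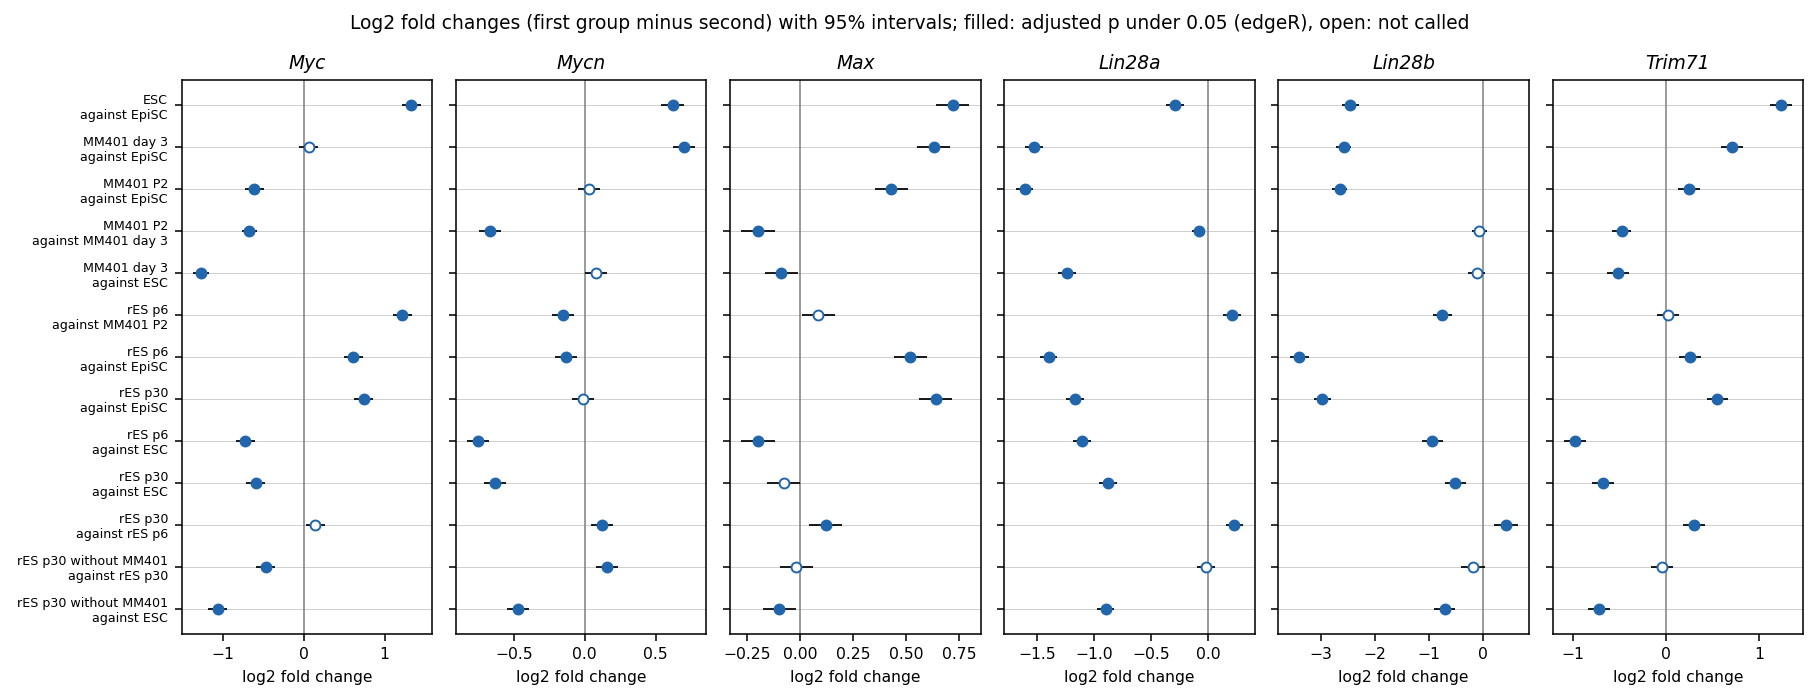
Log2 fold changes of the 6 genes in 13 comparisons, first group minus second, with 95% intervals from the standard error and a separate axis for each gene. Filled points were called by edgeR and open points were not, and Lin28b is at -2.46 or lower in every comparison with EpiSC shown.

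After 3 days of MM401 in LIF medium, 5 of the 6 genes differed from EpiSC, 3 higher and 2 lower, where 76.6% of all genes were called (38.7% higher and 37.9% lower). Lin28b was lower by 5.97-fold (-2.58 ± 0.07, adjusted p = 3.04e-30, edgeR) and Lin28a by 2.89-fold (-1.53 ± 0.04, adjusted p = 2.02e-32, edgeR). Trim71 (0.71 ± 0.06), Mycn (0.70 ± 0.04) and Max (0.63 ± 0.04) were higher. Myc was not called (0.06 ± 0.06, adjusted p = 0.328, edgeR, with a 95% interval from -0.05 to 0.18). The same EpiSC libraries serve as controls in each comparison with EpiSC, so these comparisons are not independent. The share of calls that were higher at day 3 was 50.6%, and 38.6% after scaling to total counts. That scaling moved the median of all genes against EpiSC from 0.00 to -0.17 at day 3, 0.00 to -0.15 in ESC, 0.08 to -0.07 at P2, 0.04 to -0.09 in rES at passage 6 and -0.02 to -0.17 at passage 30.

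Of the 31 Myc target genes 19 were higher and 7 lower at day 3 than in EpiSC (11 lower with total counts; median 0.19, against 0.00 over all genes). Shmt2 (0.83 ± 0.03) and Ppan (0.73 ± 0.04) were higher, while the nucleoside diphosphate kinase gene Nme1 (-1.10 ± 0.04) and Ldha (-0.79 ± 0.03) were lower. In the Max network 5 genes were higher and 4 lower (median 0.01), with the repressors Mxi1 (1.12 ± 0.05) and Mxd3 (1.28 ± 0.10) higher and the Myc paralog Mycl (-1.57 ± 0.08) and Mxd4 (-1.47 ± 0.09) lower. Of the cofactors 9 were higher and 3 lower (6 lower with total counts; median 0.20), with Wdr5 (1.45 ± 0.03) higher, a shared subunit of Mll complexes that also binds Myc. Of the let-7 targets 8 were higher and 13 lower (median -0.27), with Igf1r (-1.14 ± 0.05), Nras (-1.02 ± 0.04), Irs2 (-1.43 ± 0.06) and Hmga2 (-0.99 ± 0.05) lower. Of the microRNA processing genes 4 were higher and 9 lower (median -0.17), with Dicer1 (-0.74 ± 0.04), the Argonaute gene Ago1 (-0.81 ± 0.04) and Msi1 (-1.23 ± 0.06) lower. The Trim71 targets had 2 higher and 2 lower of 7 (median 0.12), with Cdkn1a at 0.78 ± 0.03 and Egr1 at -0.97 ± 0.04.

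Day 3 was also set against ESC, where 4 of the 6 genes were called, all lower at day 3 (71.2% of all genes were called, 35.6% higher and 35.6% lower). Myc was lower by 2.41-fold (-1.27 ± 0.05, adjusted p = 7.53e-23, edgeR) and Lin28a by 2.35-fold (-1.24 ± 0.04, adjusted p = 1.08e-28, edgeR). Trim71 was lower by 0.52 ± 0.06 on the log2 scale. Max was called narrowly (-0.09 ± 0.04, adjusted p = 0.0439, edgeR), and this call was lost with any one of the 4 libraries left out (adjusted p = 0.0892 to 0.142). Mycn (0.08 ± 0.04, 95% interval 0.01 to 0.15) and Lin28b (-0.12 ± 0.08, 95% interval -0.28 to 0.04) were not called, though Mycn was when only these 4 libraries were fitted (0.09 ± 0.02, adjusted p = 0.00126).

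At P2, after 6 days, Lin28b (-2.65 ± 0.07) and Lin28a (-1.61 ± 0.04) were still lower than in EpiSC, and Myc had joined them (-0.61 ± 0.06, 1.52-fold, adjusted p = 1.71e-11, edgeR). Max was higher (0.43 ± 0.04), and so was Trim71 (0.24 ± 0.06, adjusted p = 0.00106, edgeR), though not with scaling to total counts (0.09 ± 0.06, adjusted p = 0.193). Mycn was not called (0.03 ± 0.04, adjusted p = 0.511, edgeR) and with total counts it was lower (-0.12 ± 0.04, adjusted p = 0.00665). These are 5 calls among the 6 members, 2 higher and 3 lower, against 75.9% of all genes (42.1% higher and 33.8% lower). The share of calls that were higher was 55.5%, and 45.3% with total counts. Of the 31 Myc targets 5 were higher (2 with total counts) and 21 lower than in EpiSC (median -0.35, against 0.08 over all genes), with Nme1 (-1.71 ± 0.04), Ldha (-1.61 ± 0.03), Gar1 (-1.26 ± 0.05) and Ncl (-0.80 ± 0.03) lower. All 20 feeder fibroblast markers were higher in the same libraries, with a summed level of 20854 and 21233 CPM against 6181 and 6249 in EpiSC, and their part in these differences was not tested.

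From day 3 to P2 every called member fell. They were 5 of 6, where 70.8% of all genes were called, 37.5% higher and 33.3% lower. Myc fell by 0.67 ± 0.05 on the log2 scale (adjusted p = 3.36e-14, edgeR), Mycn by 0.67 ± 0.04 (adjusted p = 2.06e-19, edgeR) and Trim71 by 0.48 ± 0.05. Max fell by 0.20 ± 0.04. The fall of Lin28a was slight (-0.09 ± 0.03, adjusted p = 0.0264, edgeR) and was not called with total counts (adjusted p = 0.116), with counts thinned to the shallowest library (0.1), without MM401 P2 replicate 2 (0.0902) or without MM401 day 3 replicate 1 (0.161). Lin28b was not called (-0.07 ± 0.07, adjusted p = 0.371, edgeR). The 20 feeder markers were all higher at P2, and their part was not tested.

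In the same step 30 of the 31 Myc target genes fell and 1 rose (not called with DESeq2), with a median of -0.52 against 0.04 over all genes. Shmt2 (-1.13 ± 0.03, 422 to 193 CPM), Ldha (-0.82 ± 0.03), the nucleolar proteins Ncl (-0.71 ± 0.03, 1668 to 1021 CPM) and Mybbp1a (-0.64 ± 0.03) were among them. All 5 general pluripotency markers (Pou5f1, Sox2, Nanog, Sall4 and Utf1) were lower at P2 as well (median -0.82). Of the 10 naive genes 9 were lower and none higher (median -0.69), and of the 12 primed genes 4 were lower and 6 higher. The part of these markers in the falls of the members and the Myc targets was not tested. Of the cofactors 13 of 16 fell and 2 rose (median -0.29), with the helicase Ruvbl2 (-0.73 ± 0.03), Wdr5 (-0.63 ± 0.03) and the kinase Aurka (-0.52 ± 0.03) lower. With RLE size factors or DESeq2 no cofactor was called higher. In the Max network 6 fell and 3 rose (median -0.18), Mga by -0.30 ± 0.04 and Mxd4 by 0.91 ± 0.09. The let-7 targets did not share this direction, with 10 higher and 8 lower (median 0.09). Thbs1 (1.79 ± 0.04, 1902 to 6590 CPM), Igf1r (1.37 ± 0.04) and Insr (0.90 ± 0.05) rose, and the RNA-binding protein gene Igf2bp1 fell (-0.61 ± 0.03). Thbs1 is a matrix gene, and it rose in libraries where all 20 feeder markers were also higher. Their part in its rise was not tested. Of the microRNA processing genes 9 fell and 5 rose (median -0.17), with the exportin Xpo5 (-0.56 ± 0.04) and Drosha (-0.41 ± 0.03) lower and Msi1 (0.64 ± 0.06) higher. Of the Trim71 targets Mbnl1 (1.26 ± 0.06), Rbl2 (0.89 ± 0.07) and Cdkn1a (0.45 ± 0.03) were among 4 that rose, and Egr1 (-1.43 ± 0.04) among 3 that fell.

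**Figure D5:**
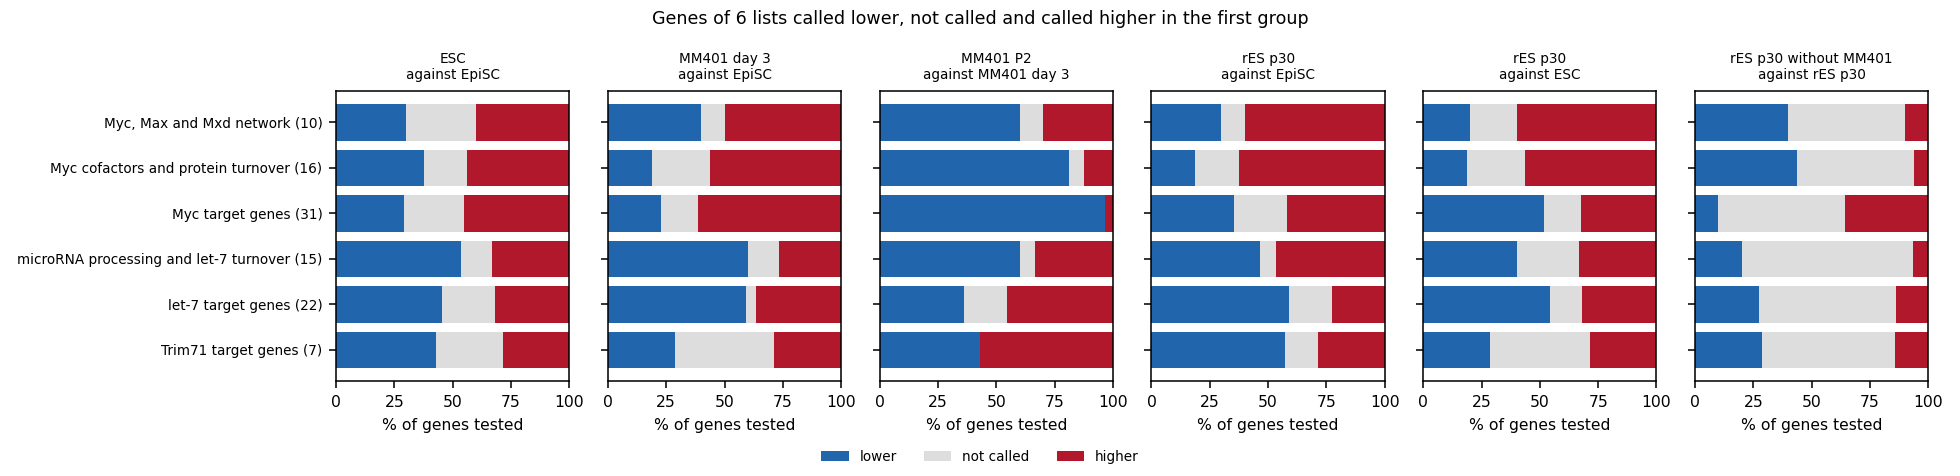
Share of the genes of 6 lists that were called lower, not called and called higher in the first group of 6 comparisons, in percent of the genes tested, with the number of genes in each list in brackets. Of the 31 Myc target genes 30 were lower at MM401 P2 than at MM401 day 3. In the other panels every list has genes called in both directions, often in unequal shares.

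Reverted cells at passage 6 were compared with MM401 P2, which is not an earlier sample of the same culture. The genotype label differs, and so does the dose, 25 µM against 100 µM MM401, so these cannot be told apart from time in culture. Myc was higher by 2.33-fold (1.22 ± 0.06, adjusted p = 4.81e-21, edgeR) and Lin28a by 1.16-fold (0.21 ± 0.04), while Lin28b was lower by 1.69-fold (-0.76 ± 0.09, adjusted p = 2.65e-09, edgeR) and Mycn by 1.11-fold (-0.15 ± 0.04). Trim71 (0.01 ± 0.06) and Max (0.09 ± 0.04, adjusted p = 0.0565, edgeR) were not called. Trim71 was called higher without MM401 P2 replicate 1 (0.13 ± 0.05, adjusted p = 0.0219), and Max without MM401 P2 replicate 2 (adjusted p = 0.0346), with RLE size factors (0.0397), DESeq2 (0.0476) or total counts (0.018). The 4 calls compare with 73% of all genes, 35.5% higher and 37.5% lower. Of the Myc targets 22 were higher and 6 lower (median 0.28), with Ldha (2.48 ± 0.03, 204 to 1132 CPM), the telomerase and pseudouridine synthase gene Dkc1 (1.34 ± 0.04), Eif4a1 (0.92 ± 0.04) and Npm1 (0.77 ± 0.04) higher. Of the Max network 7 were higher and 1 lower, with Mga at 1.43 ± 0.04 and Mlxipl, which was low in both groups (1.02 and 6.21 CPM), at 2.60 ± 0.21. Of the cofactors 13 were higher and 2 lower, with Huwe1 at 1.58 ± 0.03. All 20 feeder markers were lower in rES at passage 6 (median -2.45). All 5 general pluripotency markers were higher (median 0.48). Of the 10 naive genes 8 were higher and 2 lower, and of the 12 primed genes 2 were higher and 6 lower. The part of these markers was not tested.

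Against EpiSC, all 6 genes were called at passage 6 and 5 at passage 30. At passage 6, 3 were higher and 3 lower, where 73.8% of all genes were called (38.7% higher and 35.1% lower). Lin28b was 10.6-fold lower (-3.40 ± 0.09, adjusted p = 6.6e-31, edgeR) and Lin28a 2.65-fold lower (-1.40 ± 0.04), Myc (0.61 ± 0.06) and Max (0.52 ± 0.04) were higher, and Mycn was slightly lower (-0.13 ± 0.04, adjusted p = 0.00537, edgeR; not called without rES passage 6 replicate 2, adjusted p = 0.0854). Trim71 was higher (0.25 ± 0.06), but not with total counts (0.12 ± 0.06, adjusted p = 0.09). At passage 30, 3 were higher and 2 lower, where 76.3% of all genes were called (38% higher and 38.3% lower). Lin28b was 7.88-fold lower (-2.98 ± 0.08) and Lin28a 2.26-fold lower (-1.17 ± 0.04), while Myc (0.74 ± 0.06), Max (0.64 ± 0.04) and Trim71 (0.55 ± 0.06) were higher. Mycn was not called (-0.01 ± 0.04, adjusted p = 0.813, edgeR), but was lower without rES passage 30 replicate 1 (-0.15 ± 0.04, adjusted p = 0.00433) and with total counts (-0.17 ± 0.04, adjusted p = 0.000479).

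Around these members, the Max network was mostly higher at passage 30 than in EpiSC, with 6 genes higher and 3 lower (median 0.69, against -0.02 over all genes). Mga (1.49 ± 0.04), Mnt (1.27 ± 0.05), Mxi1 (1.30 ± 0.06) and Mxd1 (1.95 ± 0.10) were higher. Of the cofactors 10 were higher and 3 lower (5 lower with total counts; median 0.25), among them Wdr5 (1.38 ± 0.04) and Usp28 (1.05 ± 0.04). The Myc targets were split, with 13 higher and 11 lower (median 0.03), Dkc1 (1.58 ± 0.04) and Ldha (0.95 ± 0.03) higher and Nme1 (-1.61 ± 0.05) and Gar1 (-1.05 ± 0.05) lower. Of the let-7 targets 5 were higher and 13 lower (median -0.31), with Nras (-0.94 ± 0.04) and the cyclin-dependent kinase gene Cdk6 (-2.84 ± 0.14, 23.5 to 3.26 CPM) lower. The microRNA processing genes had 7 higher (4 with total counts) and 7 lower (median -0.01), and the Trim71 targets 2 higher and 4 lower (median -0.23), Egr1 among the latter (-1.73 ± 0.04). Of the 20 feeder markers 18 were lower at passage 30, and their part was not tested.

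Against ESC, no member was higher in any rES group. At passage 6 all 6 were lower, where 69.3% of all genes were called and 33% were lower (36.3% higher). Lin28a (-1.11 ± 0.04), Trim71 (-0.98 ± 0.06), Lin28b (-0.94 ± 0.10), Mycn (-0.75 ± 0.04), Myc (-0.72 ± 0.06) and Max (-0.20 ± 0.04) were lower in that order of size. At passage 30, 5 were lower and Max was not called (-0.08 ± 0.04, adjusted p = 0.0979, edgeR), with 71.1% of all genes called, 35.3% higher and 35.8% lower. Lin28a was 1.84-fold lower (-0.88 ± 0.04), Trim71 1.6-fold (-0.68 ± 0.06), Mycn 1.55-fold (-0.63 ± 0.04), Myc 1.5-fold (-0.59 ± 0.06) and Lin28b 1.43-fold (-0.52 ± 0.10). Without MM401, all 6 were lower, with 71.3% of all genes called, 36.3% higher and 35% lower. Myc was then 2.08-fold below ESC (-1.06 ± 0.06, adjusted p = 8.56e-19, edgeR), Lin28a 1.87-fold (-0.90 ± 0.04), Trim71 1.65-fold (-0.72 ± 0.06), Lin28b 1.64-fold (-0.71 ± 0.10) and Mycn 1.39-fold (-0.47 ± 0.04). The call of Max in that comparison (-0.10 ± 0.04, adjusted p = 0.043, edgeR) was lost with total counts (adjusted p = 0.0591), with thinned counts (0.0739), without ESC replicate 1 (0.116) or 2 (0.128), and without replicate 2 of rES without MM401 (0.195).

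The genes around them did not all follow in rES at passage 30 against ESC. Of the Myc targets 10 were higher and 16 lower (median -0.11, against -0.01 over all genes), with Srm (-1.05 ± 0.04), Shmt2 (-0.77 ± 0.04) and Cdk4 (-0.70 ± 0.03) lower and Dkc1 (1.43 ± 0.04) higher. Of the Max network 6 were higher and 2 lower (median 0.55), with Mxi1 (0.98 ± 0.06), Mga (0.74 ± 0.04) and Mlxip (0.57 ± 0.05) higher and Mnt (-0.50 ± 0.05) lower. The cofactors had 9 higher and 3 lower (median 0.18), with Huwe1 (0.63 ± 0.03), Aurka (0.69 ± 0.04) and Zbtb17 (0.80 ± 0.06), the Myc partner Miz-1, higher. Of the let-7 targets 7 were higher and 12 lower (median -0.24), with Hmga2 (-1.55 ± 0.05, 188.8 to 64.6 CPM), Thbs1 (-1.18 ± 0.04) and the cyclin gene Ccnd2 (-0.77 ± 0.05) lower and Plagl1 (1.09 ± 0.06) higher. The microRNA processing genes had 5 higher and 6 lower (median -0.02), and the let-7 regulators Zcchc11 (1.22 ± 0.06) and Msi1 (1.79 ± 0.09), both low in ESC, were higher in rES. Of the 7 Trim71 targets 2 were higher and 2 lower (median 0.09), with Egr1 (1.60 ± 0.05) higher and Cdkn1a (-0.99 ± 0.04) lower. Feeder markers were lower in 19 of 20 cases and higher in 1, and their part was not tested.

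Between passage 6 and passage 30 of rES, 5 of the 6 genes were called, all higher at passage 30, where 25.6% of all genes were called, 11.3% higher and 14.4% lower. Lin28b rose by 1.34-fold (0.42 ± 0.11, adjusted p = 0.00286, edgeR), Trim71 by 1.23-fold (0.30 ± 0.06, adjusted p = 0.000774, edgeR) and Lin28a by 1.17-fold (0.23 ± 0.04, adjusted p = 6.99e-06, edgeR). Max (0.12 ± 0.04, adjusted p = 0.0293, edgeR) and Mycn (0.12 ± 0.04, adjusted p = 0.032, edgeR) rose slightly. The call of Max was lost with each of the 4 libraries left out in turn (adjusted p = 0.0531 to 0.141) and with total counts (0.107). That of Mycn was lost without rES passage 30 replicate 1 (0.516), without rES passage 6 replicate 1 (0.0587) or 2 (0.27), with total counts (0.13) and with only these 4 libraries fitted (0.0514). Myc was not called (0.14 ± 0.06, adjusted p = 0.0989, edgeR), but was with RLE size factors (adjusted p = 0.04) and without rES passage 6 replicate 1 (0.0497). The count of 5 was 3 with total counts, 3 without rES passage 6 replicate 2 and 2 without rES passage 30 replicate 1, and without the latter Lin28b was lost as well (0.33 ± 0.13, adjusted p = 0.0774). The share of calls that were higher was 43.9%, and it was 33.3% with total counts, 54.3% with RLE size factors and 54.6% with DESeq2. All 20 feeder markers were lower at passage 30 (median -1.06), and their part was not tested. In the same step 8 of the 31 Myc targets rose (5 with total counts, and 13 with RLE size factors or DESeq2), among them the transferrin receptor gene Tfrc (0.32 ± 0.04), and 7 of 15 microRNA processing genes rose. Both Hmga2 (-0.82 ± 0.05) and Thbs1 (-1.41 ± 0.04) were lower among the let-7 targets, of which 6 were higher and 6 lower.

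Growth of rES without MM401 was set against rES at the same passage with it. In this comparison Myc was lower without MM401 by 1.39-fold (-0.47 ± 0.06, adjusted p = 4.21e-07, edgeR), and Mycn was higher by 1.11-fold (0.16 ± 0.04, adjusted p = 0.00413, edgeR). These were the only members called, 2 of 6, where 19.7% of all genes were called (10.4% higher and 9.3% lower). Mycn was not called without rES passage 30 replicate 2 (0.09 ± 0.04, adjusted p = 0.166), which leaves a count of 1. The others were not called: Lin28a (-0.02 ± 0.04, 95% interval -0.09 to 0.05), Max (-0.02 ± 0.04, interval -0.10 to 0.07), Trim71 (-0.04 ± 0.06, interval -0.16 to 0.08) and Lin28b (-0.19 ± 0.11, interval -0.40 to 0.01). Of the 31 Myc targets 11 were higher and 3 lower without MM401 (median 0.09, against 0.00 over all genes), with Ldha (0.23 ± 0.03), Hspe1 (0.30 ± 0.05) and Odc1 (0.19 ± 0.04) higher and Cad (-0.29 ± 0.04) lower. Of the 16 cofactors 1 was higher (2 with total counts) and 7 lower, with Ep400 (-0.47 ± 0.04), Huwe1 (-0.36 ± 0.03) and Trrap (-0.32 ± 0.04) lower. Of the Max network 4 were lower, Mlxipl (-0.64 ± 0.21, 5.96 to 3.81 CPM), Mga (-0.27 ± 0.04), Mlxip (-0.22 ± 0.05) and Mnt (-0.19 ± 0.05), and 1 was higher, though not with DESeq2. The let-7 targets had 3 higher and 6 lower (median -0.08), and the microRNA processing genes 1 higher and 3 lower (median -0.04), the latter 5 with RLE size factors, with DESeq2 or without a filter.

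The genes most like each member over the 14 libraries were found by Pearson r of log2 CPM among 11324 genes with at least 10 CPM in a group. The 14 points are 7 groups of 2 libraries, so they are not independent, and r is a description. Myc was most like Ubap2l (0.974), Snrnp200 (0.972) and Znf512b (0.971). Snrnp200 was at 425 CPM in EpiSC, 608 in ESC and 330.5 at MM401 P2. Mycn was most like Tomm40 (0.972), Nhp2 (0.967) and Ipo5 (0.962). Tomm40 was at 197 CPM in EpiSC, 268 in ESC and 311 at MM401 day 3. Max was most like Acer2 (0.987), Dusp27 (0.984) and Wdr45 (0.982), and Wdr45 ranged from 22.7 CPM in EpiSC to 214 CPM in ESC, a wider range than that of Max. Lin28a was most like Il17rd (0.988), Lpar2 (0.98) and Tspyl4 (0.98), and Il17rd was at 165 CPM in EpiSC, 122 in ESC and 34.7 at MM401 P2. Lin28b was most like Usp44 (0.987), Ssbp3 (0.986) and Sort1 (0.985), with Usp44 at 50.5 CPM in EpiSC and 9.21 in ESC. Trim71 was most like BC033916 (0.981), Socs2 (0.971) and Ythdf1 (0.964), with Socs2 at 27.4 CPM in EpiSC and 87.7 in ESC. Among the members themselves r was highest between Mycn and Trim71 (0.79), Max and Trim71 (0.77) and Lin28a and Lin28b (0.75), lowest between Max and Lin28b (-0.84), and 0.28 between Myc and Mycn.

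The count table also holds 15 rows for let-7 and Mir98 genes, which stand here for primary or host transcripts and not for mature microRNAs. Of these, 4 had no count in any library and 2 passed the filter. The host gene Mirlet7bhg had 2 and 3 counts in EpiSC and 94 and 94 counts at MM401 P2, 0.103 and 1.23 CPM as group means (3.54 ± 0.57, 95% interval 2.42 to 4.66, adjusted p = 6.49e-07, edgeR). It was also higher than in EpiSC in ESC (2.15 ± 0.74, adjusted p = 0.00886, edgeR), at MM401 day 3 (1.67 ± 0.67), in rES at passage 6 (2.84 ± 0.67) and at passage 30 (2.18 ± 0.73). The largest count of Mirlet7d was 44, and among the comparisons with EpiSC it was called only at MM401 P2 (1.29 ± 0.57, adjusted p = 0.0392, edgeR). Mirlet7d passed the filter on low counts only because of its level in the MM401 P2 libraries, so this call is no support for a rise there. At P2, where Mirlet7bhg and Mirlet7d were both highest, the 20 feeder markers were also all higher than in EpiSC (summed level 21044 against 6215 CPM). Their part in the levels of these rows was not tested. Both rows lie near the limit of detection in EpiSC, at 2 to 5 counts, so their fold changes rest on few reads.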

How the data were processed

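Per the labels' protocols, RNA came from RNeasy columns after DNase digestion, and TruSeq libraries were read from 1 end. The authors deposited raw read counts per gene name. Every level and fold change here comes from the columns of the 14 labelled libraries. TopHat2, Subread, DESeq and build mm9 are listed, without roles or order, per the submitters' processing notes. The sources used here do not give strand use or the handling of multiply mapped reads, so reads of overlapping antisense genes cannot be told apart. Left out were 2 columns that match none of the sample labels, and 27 names read as dates were kept but not named.

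Genes were filtered with filterByExpr (16247 of 24015), scaled with TMM and fitted by edgeR 4.0.16 (R 4.3.3), using its quasi-likelihood F test with robust dispersions, 1 mean per group and all 14 libraries, with Benjamini-Hochberg adjustment across all genes of each of 13 comparisons. The standard error is the absolute log2 fold change divided by the square root of F. With 2 libraries per group, p-values reflect no more than how far these libraries differ, which may be technical. The script was tested on simulated data. Lengths and UTRs came from GENCODE M21 (GRCm38), and promoters and microRNAs from RefSeq (GRCm38.p6), matched by symbol, since mm9 is an earlier build. Named genes are the 6 members, up to 4 called genes per list, ranked by adjusted p, and the 3 genes most like each member. Members and lists were chosen with earlier results of these data known. Alternatives were scaling by RLE or by total counts, testing without a filter, DESeq2 1.42.0 (Wald test), only the 4 libraries compared, a replicate block, thinning, each library left out, the longest transcript and Spearman rho. A fit without the deeper MM401 day 3 and P2 libraries was chosen after the data were seen. Some genes that this rule names are not reported here.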

Additional observations from a re-analysis of the deposited data

How the results depend on the processing

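Of the 78 fold changes of members (6 genes in 13 comparisons), 64 were called, and 54 of these were called in the same direction under every alternative run for them. Over 906 alternative values, 863 kept their side of the threshold, and those called among them also kept their direction. Of the others, 30 lost the call, 12 gained one in the same direction and 1 reversed. Where neither fit gave a call, directions were not compared. The reversal was Mycn at MM401 P2 against EpiSC, which was 0.03 and became -0.12 with total counts. The cause was not tested. The number of members called between rES passage 30 and passage 6, which was 5, was 3 with total counts and 2 to 4 with 1 library left out. For rES passage 30 without MM401 against rES passage 30 it was 1 to 2 with 1 library left out. For the other 11 comparisons the number of members called stayed within 1.5 times that reported in every alternative. Without the MM401 day 3 and P2 libraries all 48 fold changes of the 8 comparisons that do not use them kept their call.

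With the replicate number as a block in the fit, 76 of 78 kept their call, Max at MM401 day 3 against ESC lost it (-0.09, adjusted p = 0.0504) and Mycn in that comparison gained it (0.08, adjusted p = 0.0497). Deviations of libraries with the same number had a correlation of -0.0306 to 0.0402 over 21 pairs of groups. No pairing by number was seen, but noise in genes with low counts could hide a weak one. Of 624 alternative counts for the 6 lists, 597 stayed within 1.5 times and 27 moved. With the longest transcript the highest level per kilobase was 64 in place of 34.5 CPM for Max and 18.2 in place of 10.9 CPM for Lin28b. With Spearman rho, only Acer2 (for Max) was again among the 3 genes most like a member. Depth limits mainly Lin28b in rES, at 191 to 310 counts a library, and the let-7 rows.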
